A study of Homo sapiens with 97 samples.

Results

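Mid-late islands are stretches of mid-late replication timing that lie inside late-replicating sequence of U2OS cells, so that each is a local peak of earlier timing between late domains. They were found by joining touching intervals of the same class in the 4 timing lists (early, mid-early, mid-late and late) on chromosomes 1 to 22 and X, and by keeping mid-late domains with a late domain on both sides. This gave 1233 islands among 4289 mid-late domains and 13611 timing domains in all. The islands were chosen by their own timing class and that of their neighbours, so class, neighbours and number describe the choice and are not tested. Positions are on the human build hg19, counted from 1.

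The series holds 97 samples of human cell lines in which replication was followed near double-strand breaks. Timing comes from untreated wild-type U2OS osteosarcoma cells in G1 and S phase, with each phase labelled as merged. Nascent strand sequencing (NS-seq) peaks come as a merged list deposited with an untreated input of AsiSI-U2OS cells, which carry the restriction enzyme AsiSI, and no label says which libraries it merges. AsiSI sites overlapping the break nuclease MRE11 come from HCT116 colorectal carcinoma cells that lack the DNA ligase LIG4 and carry the cohesin subunit RAD21 with an auxin-inducible degron, after 300 nM 4-hydroxytamoxifen (4OHT) for 4 h to start cutting. The NS-seq libraries of the series come from control AsiSI-U2OS cells and from AsiSI-U2OS cells given the same 4OHT treatment. The merged NS-seq list may hold either kind or both. Each list exists once and gives no read depth, so there was no replicate error. No test is given, and the intervals at 95% confidence cover counting error only.

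Chromosomes replicate in domains, each copied within a characteristic part of S phase by groups of origins that fire at similar times. Late domains are typically poor in genes and in efficient origins and often lie at the nuclear periphery. A local peak of earlier timing is where replication usually starts before it does in the sequence around it. NS-seq maps such starts by sequencing short new strands that still carry an RNA primer.

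Islands were short and numerous. Their median length was 103 kb, with quartiles of 52.7 and 192 kb and a range of 20 to 1333 kb. Together they covered 183 Mb, which is 6.21% of the listed sequence, 23.6% of mid-late sequence and 28.7% of mid-late domains. A length under 50 kb was found for 289 islands (23.4%), a length of 100 to 200 kb for 363 (29.4%) and a length of 500 kb or more but under 1 Mb for 37, while 3 islands reached 1 Mb. Most islands, 811 (65.8%), consisted of 1 interval of the list, 269 of 2 intervals and 153 of 3 or more. The longest island lay on chromosome 7 (86487701 to 87820900, 1.33 Mb) and held 6 intervals. It was followed by an island on chromosome 8 (91368601 to 92534700, 1.17 Mb, 10 intervals) and another on chromosome 7 (19270201 to 20351800, 1.08 Mb, 7 intervals). Next came a pair on chromosome 4 (144107701 to 145069200, 962 kb, and 156087001 to 156937400, 850 kb). The shortest islands were near 20 kb and lay on chromosome 6 (101277101 to 101297100), chromosome 14 (37823901 to 37844100) and chromosome 5 (3504301 to 3524700). No late domain and no island was shorter than 20 kb, while 37 domains of other kinds were. The lower end of the sizes is therefore near a limit of the lists.

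Islands were close in length to mid-late domains in the opposite surroundings, and shorter than those on the slopes of the profile. The 1829 mid-late domains between mid-early domains had a median length of 107 kb, with quartiles of 61.2 and 191 kb. The 1068 mid-late domains that join a mid-early to a late domain had a median of 222 kb, with quartiles of 90.3 and 386 kb.

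**Figure D1:**
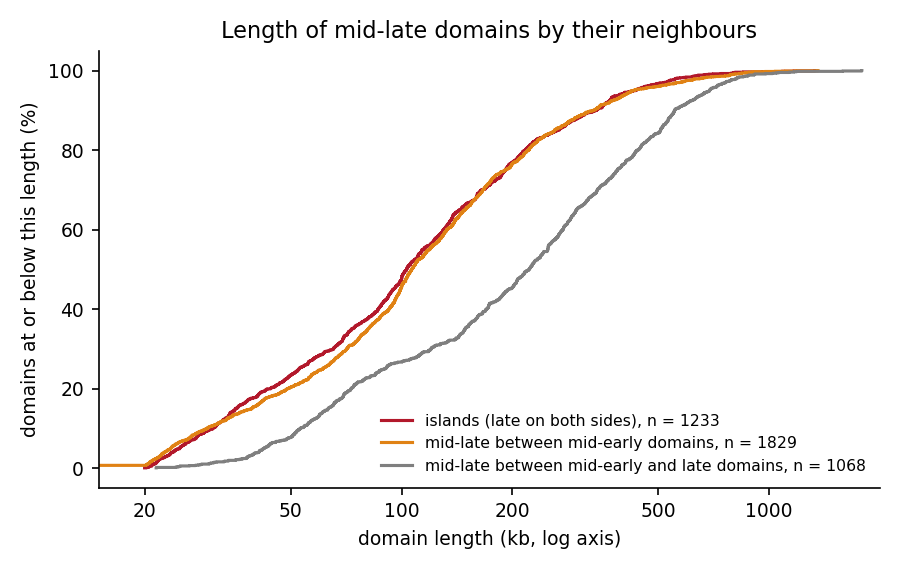
Cumulative share of domains (%) against length (kb, log axis) for islands, mid-late domains between mid-early domains, and mid-late domains between a mid-early and a late domain. The curve of the islands runs beside that of mid-late domains between mid-early domains, with medians of 103 and 107 kb, and the third curve lies to the right with a median of 222 kb. Domains under 15 kb lie left of the axis.

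The late sequence around islands was longer than the islands but very uneven. The 1603 late domains that touch an island had a median length of 143 kb, with quartiles of 70.7 and 371 kb and a maximum of 10.6 Mb. They make up 90.0% of late domains and 94.0% of late sequence, so the flanks of islands are nearly the whole late class. Of the 193 late domains of 1 Mb or more, 181 had an island next to them. At each island, the shorter flank had a median of 95 kb and the longer a median of 320 kb. Islands shorter than both flanks numbered 561 (45.5%), islands longer than both flanks 310 (25.1%), and 362 were longer than the shorter flank only. Flanks on the left and right had medians of 155 and 157 kb.

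Islands came in runs that alternate with late domains. Of the flanking late domains, 863 had an island on both sides and 740 on 1 side. The 1233 islands formed 370 runs: 105 runs of 1 island, 176 of 2 to 4 islands and 89 of 5 or more. Runs of 5 or more held 627 islands (50.9%). Within runs, the distance between the centres of neighbouring islands had a median of 352 kb, with quartiles of 235 and 617 kb over 863 distances. A run with its outer late domains spanned 1.79 Mb at the median (quartiles 0.890 and 3.13 Mb), and islands filled 20.6% of the sequence of all runs. At the outer ends, 369 runs met mid-late sequence on both sides and 1 met mid-early sequence on 1 side.

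The longest run held 14 islands between 15 late domains on chromosome 4 (16481501 to 21419400, 4.94 Mb). Its islands were 30.7 to 229 kb long, and its late domains 29.3 kb to 1.33 Mb. Islands filled 28.0% of this run, and 1 of the 14 held an NS-seq peak (score 11.04), while its late domains held 0. There were 14 runs with 10 or more islands, 3 each on chromosomes 4 and X and 2 on chromosome 5. In these runs, 157 islands of 21.7 Mb held 2 peaks in all and their late domains held 4. All islands held 98 peaks in 183 Mb. Those at least 5 Mb from ends of the listed chromosomes and from mid-early intervals over 1 Mb held 24 in 153 Mb. No difference between long runs and other islands is read from these few peaks. The run with the widest span covered 21.7 Mb of chromosome X (77386601 to 99077400), with 12 islands that filled 5.23% of it and held 0 peaks.

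**Figure D2:**
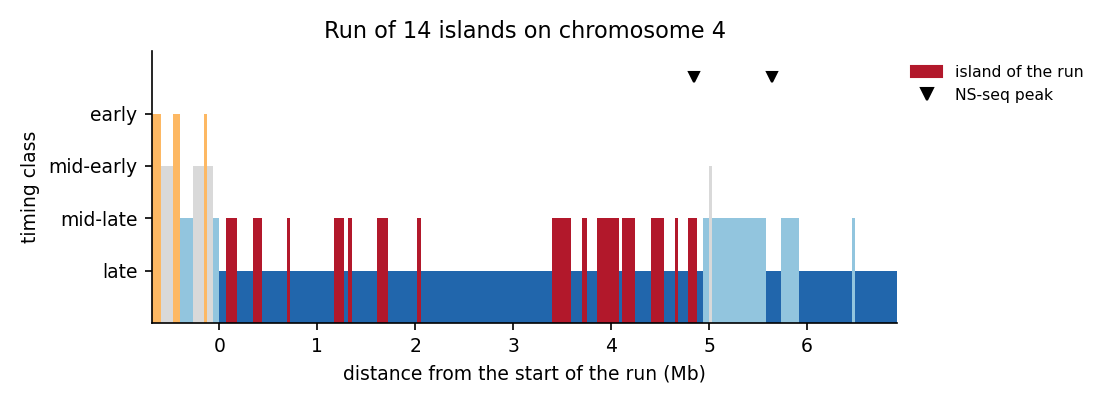
Timing classes along the run of 14 islands on chromosome 4 and its surroundings, with the distance from the start of the run (Mb) on the x axis and the class (late to early) as bar height. Dark red bars are the islands of the run, other mid-late sequence is light blue, and triangles are NS-seq peaks. A single island of the run, the last, lies under a triangle, and the late domain in the middle of the run is 1.33 Mb long.

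Chromosomes with the most islands per length were rich in late sequence, but not every late-rich chromosome had many. Chromosome 4 had 145 islands, or 75.9 per 100 Mb of listed sequence, chromosome X had 116 (74.7 per 100 Mb) and chromosome 18 had 47 (60.2 per 100 Mb). The lowest values were 11 islands on chromosome 17 (13.5 per 100 Mb), 6 on chromosome 22 (17.0 per 100 Mb) and 59 on chromosome 1 (23.7 per 100 Mb). Late sequence made up 39.6% of chromosome 4, 38.1% of chromosome X and 30.3% of chromosome 18, against 10.1% of chromosome 17, 5.73% of chromosome 22 and 18.1% of chromosome 1. Chromosome 13, 38.4% late, ranked 7 of 23 with 44.7 islands per 100 Mb, and chromosome 3, 31.0% late and so above chromosome 18, ranked 14 with 36.9. Counted per 10 Mb of late sequence the order changed. Chromosome 19 then came first with 44.2 islands, followed by chromosome 22 with 29.7 and chromosome 15 with 22.02, and chromosomes 11, 13 and 3 came last with 11.4, 11.6 and 11.9. Chromosome 19, at 6.89% late, thus had its late sequence broken by 18 islands, 11 of them in a run of 4.27 Mb (20332801 to 24601500). Island length varied less, with chromosome medians between 73.7 kb on chromosome 17 and 144 kb on chromosome 14.

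**Figure D3:**
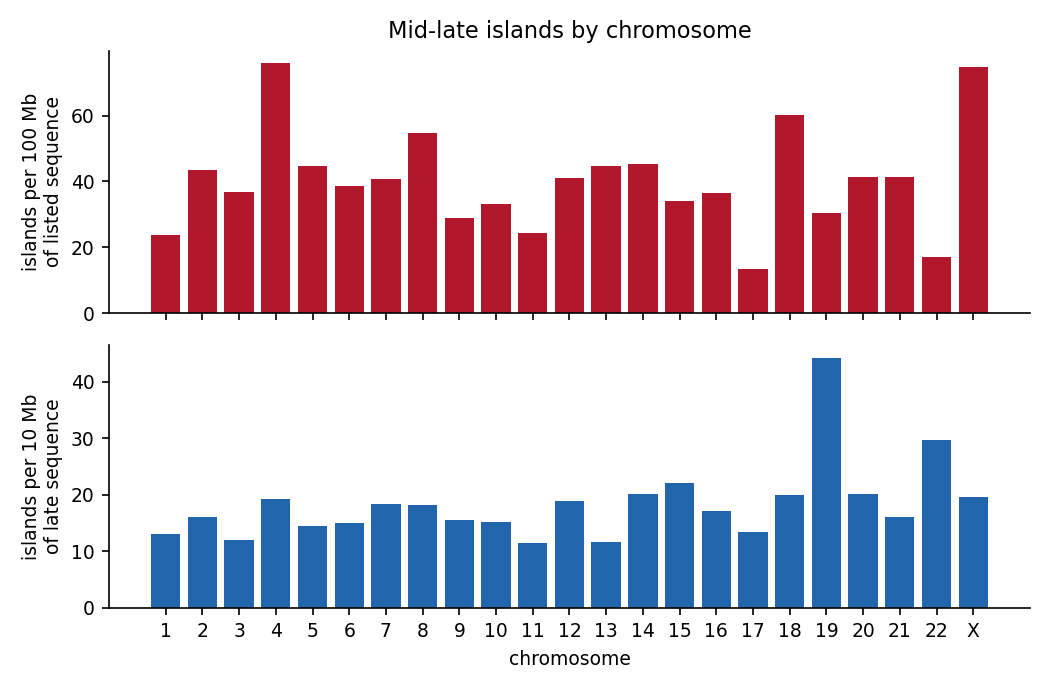
Islands per 100 Mb of listed sequence (upper bars) and per 10 Mb of late sequence (lower bars) on each chromosome. Chromosomes 4 and X stand highest in the upper bars at 75.9 and 74.7, and chromosome 19 in the lower bars at 44.2.

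Most islands lay well apart from early sequence. The nearest mid-early domain was 663 kb away at the median and over 1 Mb away from 375 islands (30.4%). The nearest early domain was 1.42 Mb away at the median and over 1 Mb away from 820 islands (66.5%), and the largest distance was 13.0 Mb. A late domain stands on each side by the rule, which sets a lower limit to these distances, and the smallest distance to mid-early sequence was 61.4 kb.

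Few islands held an NS-seq peak. All peaks in the list are 1000 bp wide, and the lowest score on these chromosomes was 10.0, so an island without a peak may still hold origins too weak for the list. The 1233 islands held 98 peaks, and 58 islands (4.704%, exact Clopper-Pearson interval 3.59 to 6.04%) held any. Of these, 37 had 1 peak, 11 had 2, 6 had 3, 1 had 4, 1 had 5 and 2 had 6. Islands with 2 or more peaks numbered 21 and held 61 of the 98 peaks (62.2%). Of the flanking late domains, 113 of 1603 held a peak (7.05%, interval 5.84 to 8.41%), with at most 10 in a domain. Over all timing domains the share was 13.1% (1780 of 13611, interval 12.5 to 13.7%), well above that of islands.

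Per length of sequence, islands held more peaks than the late domains around them. Islands had 0.534 peaks per Mb (exact Poisson interval 0.434 to 0.651) and flanking late domains 0.285 (interval 0.247 to 0.327, 201 peaks in 705 Mb). The ratio was 1.87 (exact conditional interval 1.46 to 2.40), and the density was higher in islands on 16 of 23 chromosomes and lower on 7. Chromosomes 11, 16 and 19 had 0 peaks in islands. The whole set of timing domains had 1.26 peaks per Mb, so both islands and flanks lay below it.

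The excess depended on which late sequence islands were set against. In windows of the island's own length on each side of it, ended at the far edge of the flanking domain and joined where they overlapped, the density was 0.486 per Mb (90 peaks in 185 Mb), and the ratio fell to 1.10 (interval 0.817 to 1.48). Peak density in flanking late domains was lower the longer the domain. It was 1.11 per Mb in flanks under 50 kb, 0.738 at 50 to 100 kb, 0.611 at 100 to 200 kb, 0.482 at 200 to 500 kb, 0.292 at 500 kb to 1 Mb and 0.153 in the 181 flanks of 1 Mb or more. The same bins of islands held 0.734, 0.493, 0.587, 0.448 and 0.736 peaks per Mb. The 3 islands of 1 Mb or more held 0 peaks, where the exact Poisson interval reaches 1.03 per Mb. Among domains under 500 kb, the ratio was 0.887 (interval 0.656 to 1.19, 81 and 107 peaks), which includes 1. A single stretch of chromosome 8 (142950101 to 143593300) held 10 of these island peaks and 21 of these flank peaks. The ratio and the flank densities by length were not computed without it. The alternative with a limit of 500 kb was chosen after the data were seen.

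**Figure D4:**
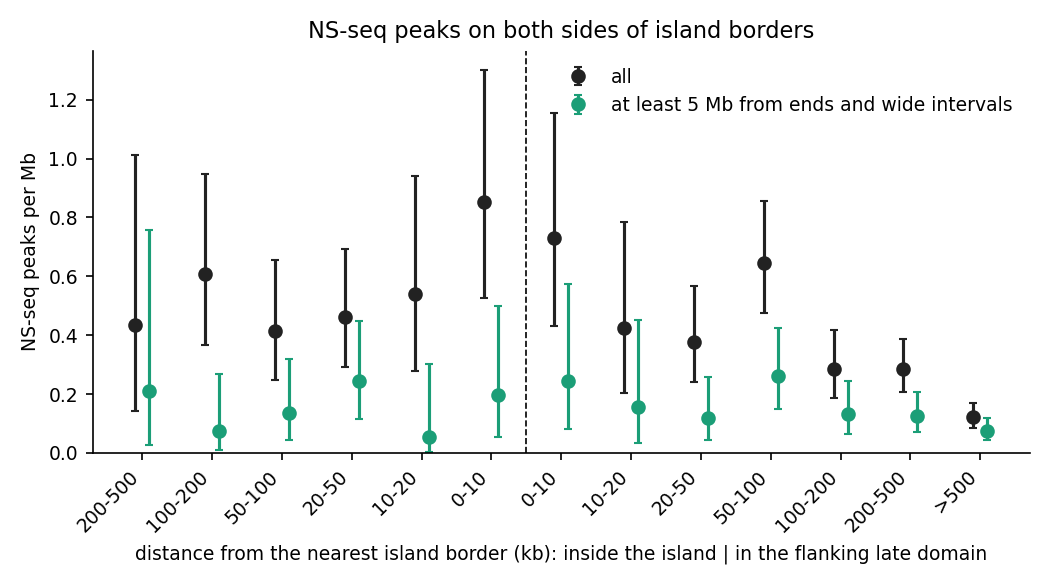
NS-seq peaks per Mb against the distance from the nearest island border (kb), inside islands left of the dashed line and in flanking late domains right of it, for all domains and for those at least 5 Mb from chromosome ends and wide intervals. Bars are exact Poisson intervals. Density is 0.852 per Mb in the outermost 10 kb of islands and 0.730 in the first 10 kb of the flanks, and it falls to 0.122 beyond 500 kb into the flanks. The bin over 500 kb inside islands (0.581 Mb, 0 peaks) is not drawn.

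Peaks did not gather at the centres of islands. Of the 98 peaks, 54 lay nearer to a border than to the centre of their island (55.1%, exact Clopper-Pearson interval 44.7 to 65.2%), where an even spread gives 50%. The left side of islands held 46 peaks and the right side 52. The distance to the nearest border had a median of 36.1 kb and a maximum of 370 kb, and 21 peaks lay within 10 kb of a border. Intervals overlapped across the border itself, with 0.852 per Mb in the outermost 10 kb of islands (interval 0.527 to 1.30) and 0.730 in the first 10 kb of flanks (interval 0.433 to 1.15). Farther from the border, islands had 0.463 peaks per Mb at 20 to 50 kb and flanks 0.378, islands had 0.416 at 50 to 100 kb and flanks 0.646, and islands had 0.607 at 100 to 200 kb and flanks 0.285. The intervals overlapped in each of these bins, the last with 0.365 to 0.948 in islands and 0.186 to 0.418 in flanks. Peaks that shared an island had a median gap of 19.1 kb between midpoints over 40 gaps, and 13 gaps were under 10 kb.

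Peak density in islands varied with place on the chromosome, although most islands lacked a peak in every place. Domains were divided, after the data were seen, into those within 5 Mb of an end of the listed chromosome, those within 5 Mb of a mid-early interval over 1 Mb and not of an end, and the interior. There were 20 such wide intervals on 19 chromosomes, with a median length of 3.06 Mb and 0 peaks, and no annotation of centromeres or assembly gaps was used here. Chromosome ends here are the first and last listed bases, and on some chromosomes the first lies megabases inside. The 209 islands outside the interior (17.0% of islands) held 74 of the 98 peaks (75.5%). A peak was found in 26 of the 92 islands near chromosome ends (28.3%, exact Clopper-Pearson interval 19.4 to 38.6%) and in 10 of the 117 near wide intervals (8.55%, interval 4.17 to 15.2%). The 92 islands near chromosome ends held 49 peaks, or 3.57 per Mb (exact Poisson interval 2.64 to 4.72), and the 117 islands near wide intervals held 25, or 1.54 per Mb (interval 0.998 to 2.28). The 1024 interior islands held 24 peaks, or 0.156 per Mb (interval 0.1002 to 0.233), and 22 of these islands (2.15%, exact Clopper-Pearson interval 1.35 to 3.23%) held any. Density was thus 22.8 times (exact conditional interval 13.7 to 38.9) as high in islands near ends as in interior islands, and 9.86 times (interval 5.40 to 18.0) as high near wide intervals.

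The late flanks varied with place in the same order. They had 2.27 peaks per Mb near ends, 0.514 near wide intervals and 0.124 in the interior. The ratio of islands to flanks was 1.58 near ends (exact conditional interval 1.09 to 2.26) and 2.998 near wide intervals (interval 1.75 to 5.05). Near wide intervals, 2 islands, on chromosomes 2 and 17, held 11 of the 25 peaks, and without them the density was 0.895 per Mb and the ratio 1.74 (interval 0.876 to 3.26). In the interior it was 1.26 (interval 0.758 to 2.02), which includes 1, and islands had the higher density on 12 chromosomes, the lower on 9 and 0 peaks with 0 in flanks on 2. Against windows as long as the island, the interior ratio was 0.690 (interval 0.392 to 1.19, 24 and 35 peaks). With peaks at or above the median score only, it was 1.91 (interval 1.02 to 3.46, 18 and 36 peaks). Both of these interior alternatives were chosen after the data were seen. With the limit of 5 Mb, only the higher-scoring peaks gave an interval above 1, and its lower end was close to 1. Peaks cluster, so the intervals are too narrow and no difference is read from this one. With a limit of 2 Mb, the interior ratio for all peaks was 1.75 (interval 1.30 to 2.33, 71 and 155 peaks), which excludes 1. With 10 Mb it was 1.32 (interval 0.644 to 2.52, 13 and 39 peaks). The interior result thus depended on a limit chosen after the data were seen.

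**Figure D5:**
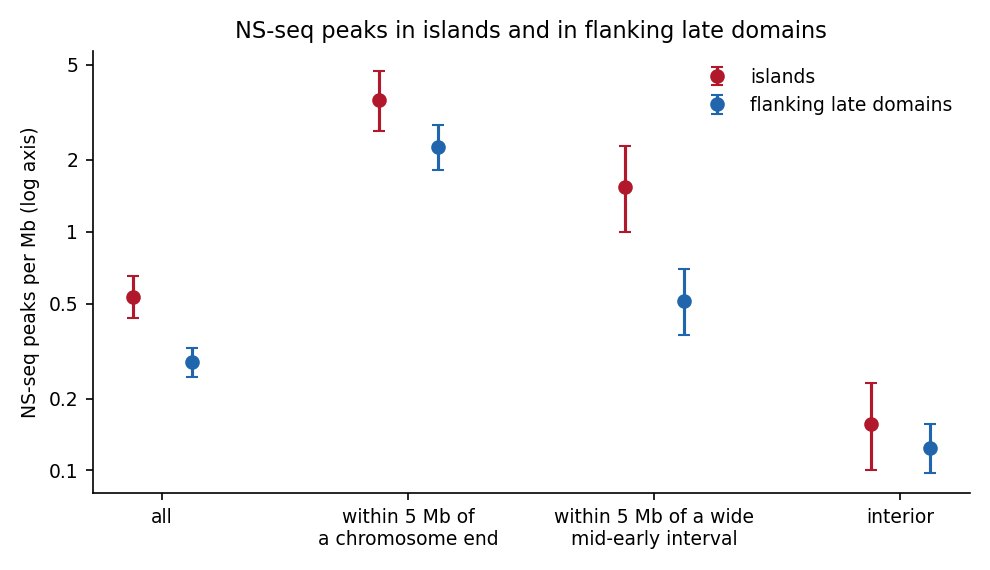
NS-seq peaks per Mb (log axis) in islands and in flanking late domains, for all of them and by place on the chromosome. Points are densities and bars exact Poisson intervals. Islands near ends of the listed chromosomes (3.57) and near wide mid-early intervals (1.54) stand far above interior islands (0.156). The interval of interior islands overlaps that of interior flanks (0.124).

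The 10 islands with the most peaks held 39 of the 98 peaks (39.8%), and 0 of them lay in the interior. An island on chromosome 1 (3022901 to 3617200, 594 kb) lay 3.02 Mb from the chromosome end and held 6 peaks with scores of 10.6 to 18.7, while its flanks held 1. An island on chromosome 2 (91657301 to 91947200, 290 kb) also held 6 peaks, with scores of 10.9 to 13.5. It lay 398 kb from a wide interval between late flanks of 32.5 and 28 kb, both without a peak. The island with 5 peaks, on chromosome 17 (21776101 to 22053500, 277 kb), lay 224 kb from a wide interval, held all 5 peaks in chromosome 17 islands and had flanks without a peak. Chromosome 8 contributed 3 neighbouring islands within 3.27 Mb of its end. The first (143073701 to 143095100, 21.4 kb) and second (143342601 to 143377100, 34.5 kb) held 3 peaks each and the third (143399201 to 143511900, 113 kb) held 4. The late domain between the first and second held 10 peaks, so this stretch was dense in peaks in islands and flanks alike.

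The other 4 of these 10 islands held 3 peaks each. On chromosome 4 they were 562701 to 858400 (296 kb), whose flanks held 0 peaks, and 3343101 to 3465700 (123 kb), whose flanks held 5. On chromosome 22, 49157401 to 49297300 (140 kb) lay 2.01 Mb from the end in a run of 5 islands. On chromosome 9, 42462201 to 42982800 (521 kb) lay 4.31 Mb from a wide interval and consisted of 1 interval of the timing list. Each of the 5 longest islands lay in the interior and held 0 peaks, as did the late domains beside it. Most islands were alike in both, as 83.0% lay in the interior and 95.3% held 0 peaks. The share with a peak was 1.04% of islands under 50 kb and 18.9% of the 37 islands of 500 kb to 1 Mb. It was 0 among the 3 islands of 1 Mb or more.

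Peak density in islands was lower in longer runs, but 2 islands carried much of the order. Density was 1.13 per Mb in the 105 single islands (exact Poisson interval 0.681 to 1.77), 0.613 in runs of 2 to 4 (interval 0.449 to 0.817) and 0.361 in runs of 5 or more (interval 0.248 to 0.507). The islands with 6 peaks on chromosome 1 and 5 peaks on chromosome 17 were both single and held 11 of the 19 peaks in single islands. Without them, a choice made after their values were seen, single islands had 0.502 peaks per Mb (interval 0.217 to 0.989), which overlaps the intervals of both longer kinds of run. The flanks had 0.395 peaks per Mb beside single islands, 0.321 in runs of 2 to 4 and 0.212 in runs of 5 or more. The interior share of islands rose alongside, with 76.2% of single islands, 82.2% of islands in runs of 2 to 4 and 84.8% of islands in runs of 5 or more, and its part in the result was not tested.

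Peak scores, the authors' value per peak with no stated scale, were slightly higher in islands than in the flanks. The mean was 13.2 ± 2.65 (SD, 98 peaks) in islands and 12.9 ± 2.67 (SD, 201 peaks) in flanking late domains, a difference of 0.361 that is small beside the SD. Medians were 12.56 in islands and 12.002 in flanks, and the median of all peaks on these chromosomes was 11.8. A score at or above that overall median was found for 66 of 98 peaks in islands (67.3%) and 109 of 201 in flanks (54.2%). Among the few interior peaks the mean was 13.7 ± 2.95 (SD, 24 peaks) in islands and 12.7 ± 2.67 (SD, 73 peaks) in flanks. The highest score in any island, 21.7, belonged to the interior peak 5505279 to 5506278 on chromosome 18, alone in its island of 160 kb and 30.2 kb from the border. The next highest interior peaks were 96112799 to 96113798 on chromosome 4 (score 19.8) and 5954653 to 5955652 on chromosome 5 (score 19.4), each also alone in its island.

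Islands were poorer in peaks than mid-late sequence elsewhere. They held 98 of the 930 mid-late peaks (10.5%) in 23.6% of mid-late sequence. Mid-late domains between a mid-early and a late domain had 0.790 peaks per Mb (exact Poisson interval 0.691 to 0.899), and the ratio of islands to them was 0.677 (exact conditional interval 0.529 to 0.861). Mid-late domains between mid-early domains had 1.96 peaks per Mb (interval 1.80 to 2.13), and the ratio was 0.273 (interval 0.218 to 0.339). The order was the same in the interior, with 0.156 peaks per Mb in islands, 0.355 between a mid-early and a late domain (ratio 0.441, interval 0.268 to 0.700) and 0.908 between mid-early domains (ratio 0.172, interval 0.108 to 0.263). A shared class therefore came with a peak density that differed by the class of the neighbours.

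AsiSI sites overlapping MRE11 were rare in islands. AsiSI cuts at a recognition site rich in C and G, and MRE11 resects the DNA ends that it leaves. Of 129 sites, 2 lay in islands (1.55%, exact Clopper-Pearson interval 0.188 to 5.49%), against 6.21% of listed sequence. Of the 30 sites in mid-late sequence these 2 were 6.67% (interval 0.818 to 22.1%), while islands make up 23.6% of that sequence. The density was 1.09 sites per 100 Mb in islands (exact Poisson interval 0.132 to 3.94) and 0.425 in flanking late domains (interval 0.0877 to 1.24, 3 sites), so islands and flanks could not be told apart at these counts. It was 2.07 per 100 Mb between a mid-early and a late domain (6 sites) and 6.74 between mid-early domains (19 sites). Timing is that of U2OS cells while sites were mapped in HCT116, and a difference in timing between the lines cannot be told apart from the placement of sites.

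Both island sites lay in the interior, as did 83.0% of all islands. The site 89458596 to 89458603 on chromosome 1 lay 84.8 kb inside an island of 182 kb (89361401 to 89543400), between late flanks of 104 and 29.9 kb. Its nearest NS-seq peak was 535 kb away. The site 100558311 to 100558318 on chromosome 11 lay 219 kb inside an island of 622 kb (100154701 to 100777100), between late flanks of 3401 and 38.9 kb. Its nearest peak was 2.04 Mb away. Neither island held a peak, as was true of 95.3% of all islands, and neither did the late domains beside it. Each of the 3 late sites lay in a late domain that flanks an island, and such domains make up 94.0% of late sequence. These 3 sites lay 103 kb (chromosome 15), 3.63 Mb (chromosome 13) and 7.93 Mb (chromosome 1) from their nearest NS-seq peak. Their nearest islands were 94.96 kb away on chromosome 15 (92396938 to 92396945), 260 kb away on chromosome 13 (105238551 to 105238558) and 426 kb away on chromosome 1 (192514431 to 192514438).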

How the data were processed

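DNA for the NS-seq libraries was separated by size and digested with exonuclease, per the labels' protocols. Build hg19 is named in the submitters' processing notes, as is MACS2 without version or role. Aligner, filters, pooling and how the timing classes were divided are stated in no label or note used here. The deposited lists hold positions, and the NS-seq list adds a score that the authors gave to each peak on no stated scale. Read depth is unknown for every list.

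On chromosomes 1 to 22 and X, 22631 intervals were joined into domains with Python 3.11.15, pandas 2.3.3, numpy 2.4.6 and scipy 1.17.1. Peaks and sites were placed by midpoint, and 0 of 3724 peaks fell outside the lists. Place was measured from the first and last listed base, and the first lies megabases inside chromosomes 13, 14, 15, 21 and 22. Densities have exact Poisson intervals, shares exact Clopper-Pearson intervals and ratios exact conditional intervals, all at 95%, and the counting was tested on simulated data. Peaks cluster, so these intervals are too narrow. The members, comparisons and alternatives were chosen with earlier results of these data known. Islands named are the 10 with most peaks, the 5 longest, the 3 shortest, those with AsiSI sites and the longest run. The highest-scoring peaks, other runs and the chromosomes ranked per 10 Mb of late sequence were chosen after their values were seen. Gene names and base composition need an hg19 annotation and genome and were not used here.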

Additional observations from a re-analysis of the deposited data

How the results depend on the processing

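Over 9 results, 88 alternatives were computed, 52 planned and 36 chosen after seeing the data. In 75 the value stayed within its interval, spread or 1.5 times its count, in 11 it moved further and in 2 it turned in direction. Many of the 88 leave out 1 chromosome at a time, and the use of autosomes only repeats the omission of chromosome X. The count of 75 is therefore no measure of how stable the results are. The density ratio of islands to flanking late domains, 1.87, was 1.10 with windows as long as the island and 2.998 near wide intervals. In the interior the ratio was 1.26, or 1.32 with 10 Mb in place of 5 Mb and 1.75 with 2 Mb. The ratio of all islands to flanks turned to 0.887 among domains under 500 kb, with an interval of 0.656 to 1.19. Leaving out 1 chromosome at a time gave 1.77 to 2.01. The interior ratio turned to 0.690 with windows as long as the island, and it was 1.02 to 1.48 when 1 chromosome was left out, lowest without chromosome 5 and highest without chromosome 8. The 1233 islands became 648 with a minimum of 100 kb and 583 with both flanks at least 100 kb. The share with a peak, 4.704%, was 3.49% for peaks at or above the median score, 7.25% for islands of at least 100 kb and 2.15% in the interior. Without its 2 islands with most peaks, the density of single islands, 1.13 per Mb, was 0.502, and the ratio near wide intervals was 1.74. The cause was not tested. Domains under 20 kb absorbed into their neighbours left 1233 islands. No paired analysis was possible between replicates because the lists are merged and exist once each. The density ratios pool peaks over islands and over flanks or windows, and pairing each island with its own flanks was not tested. GC content and gene starts were not run, since no hg19 genome or annotation was used. Precision is limited by the 98 peaks and 2 break sites in islands.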

Other observations

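Late domains without an island on either side were few, short and comparatively rich in NS-seq peaks. The 178 of them had a median length of 72.7 kb and held 42 peaks in 45.3 Mb, or 0.927 per Mb (exact Poisson interval 0.668 to 1.25). Late domains with an island on 1 side had 0.368 peaks per Mb (interval 0.299 to 0.447) and a median length of 108 kb, and those with islands on both sides had 0.233 (interval 0.190 to 0.283) and a median of 178 kb. In the interior, late domains without an island neighbour had 0.368 peaks per Mb (interval 0.196 to 0.629, 13 peaks), against 0.124 in those that flank an island (interval 0.0975 to 0.156, 73 peaks). Domain length moved with the number of island neighbours, and its part in the difference was not tested.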
